A study of Drosophila melanogaster with 72 samples.

Results

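Embryos of Drosophila melanogaster given alpha-amanitin were compared with their own controls in the collection window of 1 to 1.5 h. The comparison holds 4 of the 72 libraries of the series, chosen by title: 2 labelled a_amanitin and 2 labelled Ctrl_for_a_amanitin, and all 16680 genes of the deposited tables were read. The series asks how the Integrator subunit IntS11 shapes the start of zygotic transcription, and the alpha-amanitin experiment in it has the same arms at 2.5 to 3 h, with 2 libraries each, used here as the nearest comparison. Each library is bulk total RNA of whole embryos, depleted of ribosomal RNA. The labels give neither the genotype of these embryos, the dose and route of the alpha-amanitin, nor what the controls received.

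Alpha-amanitin is a mushroom peptide that binds RNA polymerase II, slows its movement along DNA and so stops the making of messenger RNA, while RNA polymerase I resists it and RNA polymerase III is less sensitive. The fly egg is loaded by the mother with RNA that drives the first, very fast nuclear divisions. A small set of mostly short, intron-poor genes is transcribed first from the embryo's own genome, and the broad wave of zygotic transcription follows around cellularization, when membranes enclose the nuclei of the syncytium. Maternal RNAs are cleared over the same period, partly by the Smaug pathway that egg activation sets off and partly by products the embryo itself must transcribe. The inhibitor acts on new synthesis and not on RNA that is already present.

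Expected counts summed to 17938014 and 18053059 in the alpha-amanitin libraries and to 16867785 and 14051873 in the control libraries, and 7161 and 7161 genes in alpha-amanitin libraries against 7612 and 7553 in control libraries had at least 5 counts. Maternal RNAs that define the early embryo were abundant in all 4 libraries: bcd, the anterior determinant, had 208 and 210 CPM (counts scaled to library size) in alpha-amanitin embryos and 242 and 246 CPM in controls, and none of 13 germ plasm genes was at 0 in either arm. Markers of older embryos were low in both arms, with lower sums in alpha-amanitin embryos. All 14 cuticle genes were at 0 in alpha-amanitin embryos, against 11 of 14 in controls, with summed levels of 0 and 0 CPM against 0.512 and 0.478 CPM. The 13 muscle genes summed to 8.73 and 8.53 CPM against 14.2 and 14.5 CPM (9 at 0 in both alpha-amanitin libraries, 4 in both control libraries), and the 10 neuronal genes to 22.5 and 20.9 CPM against 24.0 and 26.8 CPM (3 at 0 in alpha-amanitin, 4 in control). Among them the neuronal RNA-binding protein gene elav had 1 and 0 counts in alpha-amanitin embryos and 65 and 81 counts in controls, and the muscle actin gene Act87E 0 and 0 against 37 and 38 counts. Whether a few older embryos in the control collections contribute to the differences below was not tested. The 15 follicle cell genes were at or near 0 throughout, with 12 at 0 in alpha-amanitin embryos and 10 in controls and sums of 0.0545 and 0.109 CPM against 0.285 and 0.137 CPM.

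Most transcripts stood at similar levels in both arms, and a set of low-abundance transcripts was nearly absent from alpha-amanitin embryos. Of 8517 genes tested, 1523 (17.9%) were lower and 1328 (15.6%) higher in alpha-amanitin embryos (edgeR quasi-likelihood F test, Benjamini-Hochberg adjusted p under 0.05), and by size the directions were unlike. At least 2-fold lower were 568 genes (6.67%), whereas 21 genes (0.247%) were at least 2-fold higher. Calls of less than 2-fold numbered 955 lower, with a median log2 change of -0.32, and 1307 higher, and the median over all higher calls was 0.29. The median over all genes tested was -0.01. Without alpha-amanitin replicate 1, alpha-amanitin replicate 2 or control replicate 2 the lower calls fell to 875, 877 and 936 and the higher calls to 624, 633 and 726. The count at least 2-fold lower was between 448 and 473 when any 1 of the 4 libraries was left out, and the count at least 2-fold higher was 17, 28, 31 and 13 without alpha-amanitin replicate 1, alpha-amanitin replicate 2, control replicate 1 and control replicate 2. Nothing in the labels says that the replicates came from separate collections, so p-values measure the spread between replicate libraries, which may be technical. That spread was estimated over all 8 libraries of the experiment. Chi-square per degree of freedom between replicates was 30.1 in the 2.5 to 3 h controls, against 2.45 and 5.74 in the arms compared. Leaving out replicate 1 or 2 of those later controls gave 2008 and 1996 lower and 1867 and 1870 higher. The 4 libraries of 1 to 1.5 h alone gave 1841 lower and 1547 higher. In bulk RNA, fewer cells of a type and less RNA per cell cannot be told apart.

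Among the 568 genes at least 2-fold lower, 255 had no count in either alpha-amanitin library and 411 had 3 or fewer over both. The other 157 kept between 0.469% and 50.0% of the control level, with a median of 28.1%. The set was small in mass, at summed levels of 1450 and 1450 CPM in alpha-amanitin embryos and 4870 and 4960 CPM in controls. Of its members 69 averaged at least 10 CPM in controls. No member's alpha-amanitin libraries overlapped its control libraries in CPM, which the test itself favours. The filter on low counts was run over the 8 libraries of the experiment, and 152 of the 568 passed it only with the 2.5 to 3 h libraries, so a high level in the later controls was part of how they entered. Of the 416 that pass on the 4 libraries of 1 to 1.5 h alone, 382 (91.8%) were higher in both later control libraries than in both earlier ones, against 44.4% of the 7299 genes tested on those 4 libraries. With all 568 the median was 1.72 CPM in controls of 1 to 1.5 h and 30.3 CPM in controls of 2.5 to 3 h.

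**Figure D1:**
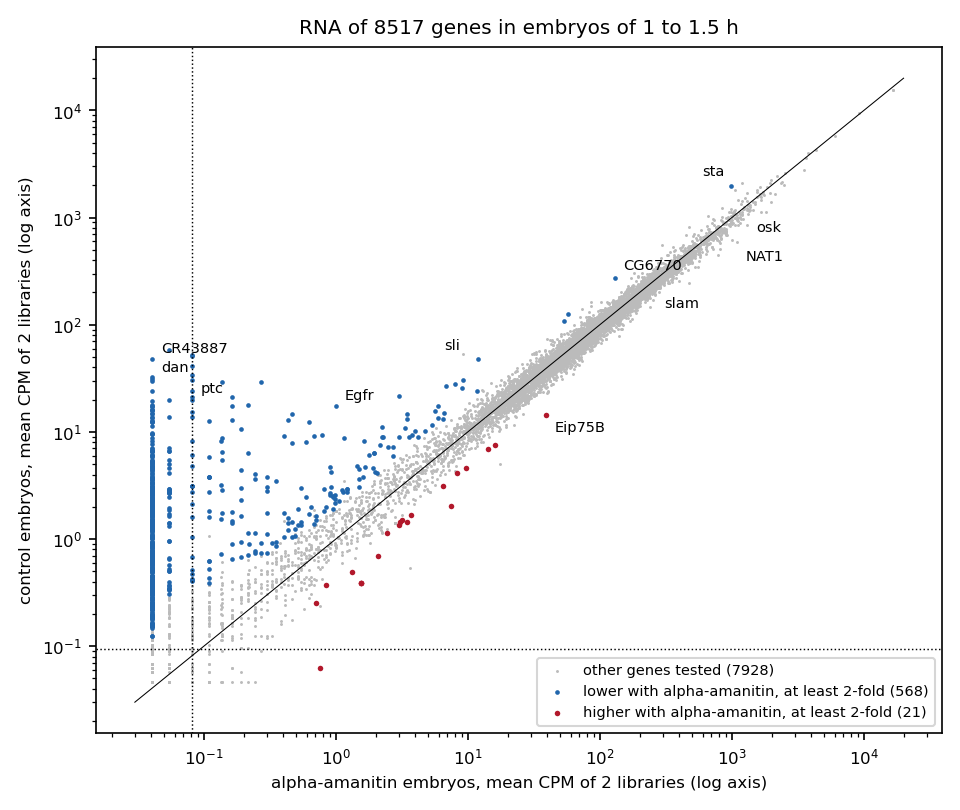
Mean level of each tested gene in alpha-amanitin embryos (horizontal axis, CPM, log scale) against control embryos (vertical axis, CPM, log scale) at 1 to 1.5 h, n = 2 libraries per group. Dotted lines mark the level of 3 counts over a group, 0.0816 CPM for alpha-amanitin and 0.0931 CPM for control, and genes without a count in an arm are drawn just beyond its line. Many of the 568 genes at least 2-fold lower stand in columns at the left edge, at 0 or a few counts in alpha-amanitin embryos, while abundant genes follow the diagonal.

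The largest falls by the naming rule, which asked for called genes with separate libraries and a mean of at least 5 TPM (the deposited level scaled for length and depth) in an arm, were in RNAs well measured in controls and at 0 or a few counts in alpha-amanitin embryos. For an arm at 0 counts, the fold is bounded from below by setting that arm to 3 counts over both libraries. For an arm with 1 to 3 counts, the ratio of the control level to the alpha-amanitin level is given with its 95% exact counting interval, which covers counting error only. The long noncoding RNA CR43887 (dm6 coordinates, chromosome 3L, 11693135 to 11693661) had 0 and 0 counts in alpha-amanitin embryos and 834 and 713 counts in controls, at least 589-fold lower. CG13427 had 0 and 0 counts against 534 and 432, at least 367-fold lower, and Dtg, a gene of the dorsal ectoderm under Dpp control, had 0 and 0 against 277 and 238, at least 196-fold lower. Other members of the group kept a single count or a few. CG10035 had 0 and 2 counts in alpha-amanitin embryos and 1065 and 820 in controls, a ratio of 1075 (297 to 8882), and bnb had 0 and 3 against 921 and 753, a ratio of 636 (217 to 3089). The gene mira, an adaptor that carries fate determinants to 1 pole of dividing neuroblasts, had 0 and 1 counts in alpha-amanitin embryos and 313 and 251 in controls, a ratio of 643 (115 to 25450). All 15 falls named by the rule had an adjusted p of at most 0.00011 in the edgeR quasi-likelihood F test, adjusted by Benjamini-Hochberg.

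The segmentation cascade, which divides the embryo first into broad gap domains, then into pair-rule stripes and then into segments, held many of the falls. For each list below the median log2 change is given as fitted, then with every gene that had at most 3 counts in an arm set to its bound. Of 11 pair-rule genes all 11 were lower (median -8.13, at bound -5.12), of 9 segment polarity genes tested 8 were lower (median -7.89, at bound -5.18) and of 12 gap genes 11 were lower (median -7.35, at bound -4.25). All of these falls were at least 2-fold, a size that 6.67% of all tested genes reached. None of these lists had fewer calls when any 1 of the 8 libraries of the experiment was left out. Summed pair-rule RNA was 0.273 and 0.109 CPM in alpha-amanitin embryos and 42.1 and 40.3 CPM in controls, and summed segment polarity RNA 0.109 and 0.380 CPM against 44.7 and 49.8 CPM.

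Among the pair-rule genes slp1, a forkhead factor, had 0 and 0 counts in alpha-amanitin embryos and 92 and 75 in controls, at least 63.4-fold lower. The paired-domain gene prd had 0 and 0 against 66 and 52 counts, at least 44.7-fold lower, and opa, a zinc finger factor that later retimes the stripes, had 1 and 0 against 171 and 142 counts, a ratio of 357 (63.6 to 14144). In none of these did the groups overlap, and replicates within an arm were close. Of the segment polarity genes, the Wnt ligand wg had 0 and 0 counts in alpha-amanitin embryos and 67 and 36 in controls, at least 38.4-fold lower. The Hedgehog receptor gene ptc had 1 and 2 counts against 350 and 330, a ratio of 259 (88.1 to 1257), and nkd, an inhibitor of Wnt signalling, 0 and 1 against 179 and 183, a ratio of 413 (73.6 to 16351). The exception of the list was inv, with 0 and 1 against 2 and 1 counts, too few to tell the arms apart. H15 did not pass the filter on low counts.

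Gap genes set up the broad domains. The zinc finger gene Kr had 1 and 1 counts in alpha-amanitin embryos and 114 and 98 in controls, a ratio of 121 (33.1 to 1005), and pdm2, a POU factor, had 0 and 0 against 51 and 35 counts, at least 32.4-fold lower. The nuclear receptor gene kni had 0 and 0 against 34 and 39 counts, at least 28.2-fold lower. hb, whose RNA is both maternal and zygotic, had 4697 and 4912 counts in alpha-amanitin embryos and 4885 and 4175 counts in controls, a log2 change of -0.11 ± 0.07 (SE, n = 2 libraries per group) that did not pass (edgeR, Benjamini-Hochberg adjusted p = 0.248). Of the 12 gap genes hb alone was not called, and the sum of the list, 256 and 267 CPM against 302 and 310 CPM, was mostly hb.

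Homeotic genes, which give segments their identity, were already detectable in the controls at low counts. Of 9, 7 were lower (median -6.44, at bound -3.29), with summed levels of 0.0545 and 0.163 CPM in alpha-amanitin embryos and 9.90 and 11.2 CPM in controls. Antp, the thoracic gene, had 0 and 1 counts in alpha-amanitin embryos and 67 and 53 in controls, a ratio of 137 (24.1 to 5450), while lab, with 0 and 0 against 2 and 4 counts, and pb, with 1 and 0 against 0 and 3 counts, were not called. Depth limits the class: Abd-B, called with the fewest reads, had 0 and 0 counts in alpha-amanitin embryos and 13 and 8 in controls.

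**Figure D2:**
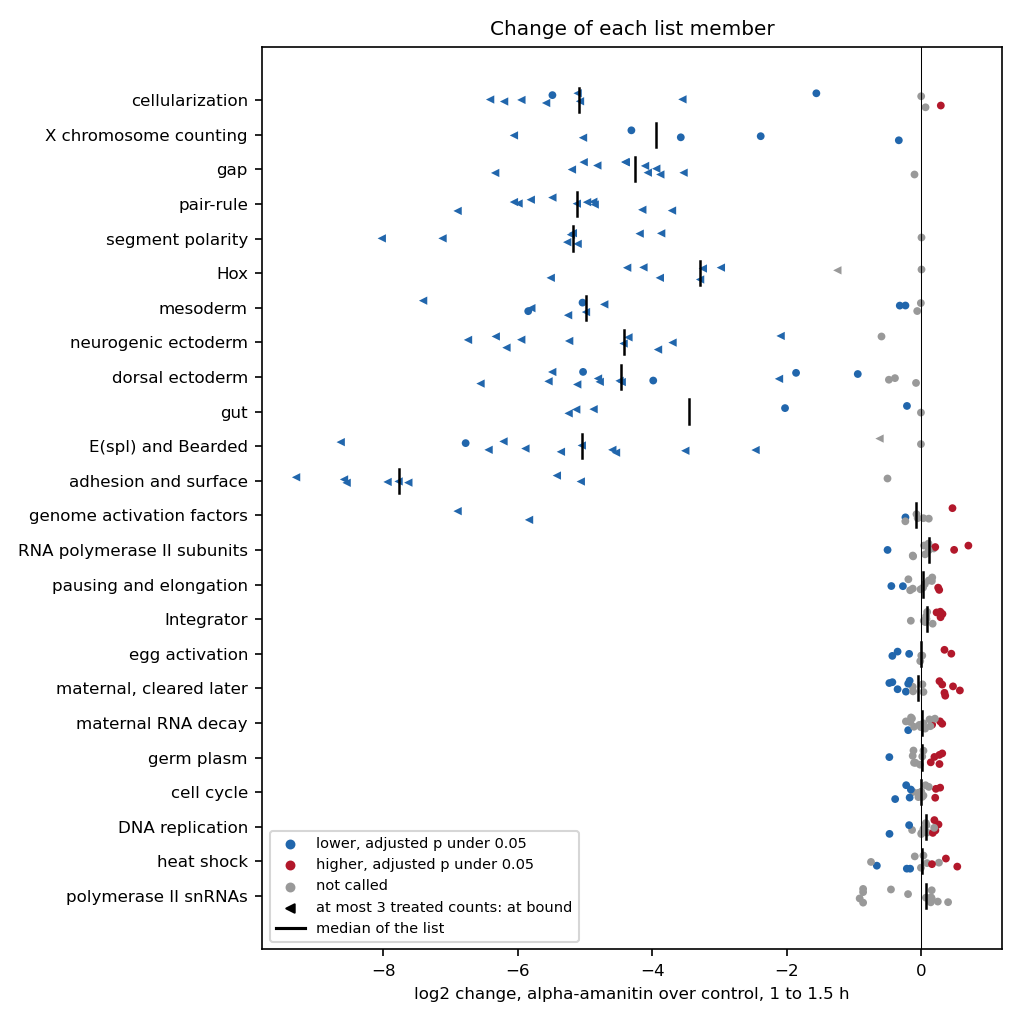
Log2 change in alpha-amanitin over control embryos at 1 to 1.5 h of each tested member (points) of the gene lists, with the list median (bar), n = 2 libraries per group; a gene with at most 3 counts in an arm is drawn at its bound. Patterning and cellularization lists lie left of 0 with a few members near it, and lists of maternal functions lie around 0.

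Dorsoventral patterning, in which the Dorsal gradient sets up mesoderm, neurogenic ectoderm and dorsal ectoderm, gave the same direction. Of 11 neurogenic ectoderm genes tested 10 were lower (median -7.36, at bound -4.42), of 16 dorsal ectoderm genes 13 (median -5.67, at bound -4.47), of 11 mesoderm genes 9 (median -5.84, at bound -4.98), and of 6 gut and endoderm genes 5 (median -5.17, at bound -3.45). SoxN, a Sox factor of the neuroectoderm, had 0 and 0 counts in alpha-amanitin embryos and 121 and 91 in controls, at least 80.2-fold lower, and the FGF ligand gene ths 0 and 0 against 87 and 75, at least 61.7-fold lower. Traf4, a signalling adaptor of the mesoderm, had 1 and 0 counts in alpha-amanitin embryos and 252 and 196 in controls, a ratio of 511 (91.2 to 20225). In these 3 genes no count in a treated embryo came near a control count.

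A few dorsoventral genes fell only partly, and their residues were well measured. The zinc finger GATA cofactor gene ush had 257 and 294 counts in alpha-amanitin embryos and 506 and 421 in controls, a log2 change of -0.94 ± 0.10, and kept 52.1% of the control level. The GATA factor gene srp kept 24.7%, with 37 and 45 counts against 177 and 117 (log2 change -2.02 ± 0.18), and the homeobox gene zen kept 27.2%, with 12 and 7 counts against 32 and 29 (log2 change -1.86 ± 0.32). Adjusted p-values were 1.9e-05, 3.5e-06 and 0.00079 for ush, srp and zen (edgeR, adjusted by Benjamini-Hochberg). Abundant members changed little: Mef2, the muscle MADS factor, had a log2 change of -0.23 ± 0.06, fog, the ligand of mesoderm invagination, -0.31 ± 0.06 and the posterior homeobox gene cad -0.21 ± 0.06. The mesoderm genes zfh1 (-0.06 ± 0.08) and T48 (0.00 ± 0.08) were not called. The neuregulin-like ligand gene vn (-0.60 ± 0.23) missed the threshold with 29 and 37 against 55 and 33 counts.

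Cellularization genes and the X-linked and other factors that count sex chromosomes belong to the first wave of transcription. Of 12 cellularization genes 9 were lower, all at least 2-fold (median -5.46, at bound -5.09). The summed level of the list, which includes the abundant slam, did not fall. It was 451 and 461 CPM in alpha-amanitin embryos and 442 and 447 CPM in controls. bnk, which restrains the actin ring of the furrow, had 0 and 2 counts in alpha-amanitin embryos and 82 and 79 in controls, a ratio of 91.8 (25.0 to 765), and nullo, a junction regulator, 0 and 2 against 45 and 45, a ratio of 51.3 (13.8 to 430). halo, a cofactor of lipid droplet transport, had 1 and 0 against 53 and 70 counts, a ratio of 140 (24.7 to 5585). In all 3 the groups were far apart. Sry-alpha, an actin regulator of the same furrow, fell less, with 112 and 105 counts in alpha-amanitin embryos and 291 and 268 in controls, a log2 change of -1.56 ± 0.15 and 33.9% of the control level. In the opposite direction slam, which organizes the furrow membrane, had 4812 and 4948 counts in alpha-amanitin embryos and 3791 and 3179 in controls and was higher by a log2 change of 0.30 ± 0.07 (edgeR, Benjamini-Hochberg adjusted p = 0.0046), a call that was lost without alpha-amanitin replicate 2. Bsg25D (0.07 ± 0.05) and dnd (0.00 ± 0.53) were not called.

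All 6 sex-counting genes were lower (median -3.94). The bZIP gene sisA had 5 and 2 counts in alpha-amanitin embryos and 49 and 27 in controls, a log2 change of -3.57 ± 0.40 with 8.23% of the control level left. The bHLH repressor gene dpn kept 19.0%, with 19 and 14 against 80 and 72 counts. Sxl, the switch gene these factors act on, was abundant in both arms, with 3344 and 3370 counts against 4007 and 3385 and a log2 change of -0.33 ± 0.05 (edgeR, Benjamini-Hochberg adjusted p = 0.00024). These counts do not tell Sxl transcripts of its early promoter from maternal ones.

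Notch-related genes and cell surface genes were among the strongest members of the lowered set. Of 13 Enhancer of split and Bearded family genes 11 were lower (median -7.44, at bound -5.05), summing to 0.327 and 0.163 CPM in alpha-amanitin embryos and 71.1 and 77.9 CPM in controls. Tom, a Bearded family regulator of Notch ligand uptake, had 1 and 0 counts against 512 and 523, a ratio of 1180.4 (211 to 46666). The Notch target E(spl)m5-HLH, a bHLH repressor, had 0 and 0 counts against 88 and 68, at least 59.1-fold lower. Of 9 genes in a list of early adhesion and surface patterning 8 were lower (median -8.88, at bound -7.77), summing to 1.31 and 1.52 CPM in alpha-amanitin embryos and 171 and 179 CPM in controls. This list also holds the transcription factor genes dan and danr, and dan had its largest fitted fall (-12.02). Toll-6, a leucine-rich repeat receptor that orients cell movements of the germ band, had 0 and 0 counts in alpha-amanitin embryos and 290 and 231 in controls, at least 198-fold lower, and trn, a related surface protein, had 1 and 1 against 343 and 300, a ratio of 367 (101 to 3034). link had 0 and 3 counts against 855 and 792, a ratio of 626 (214 to 3039). The exception was caps, whose 21 and 20 counts in alpha-amanitin embryos and 22 and 29 in controls were not told apart (log2 change -0.51 ± 0.40).

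**Figure D3:**
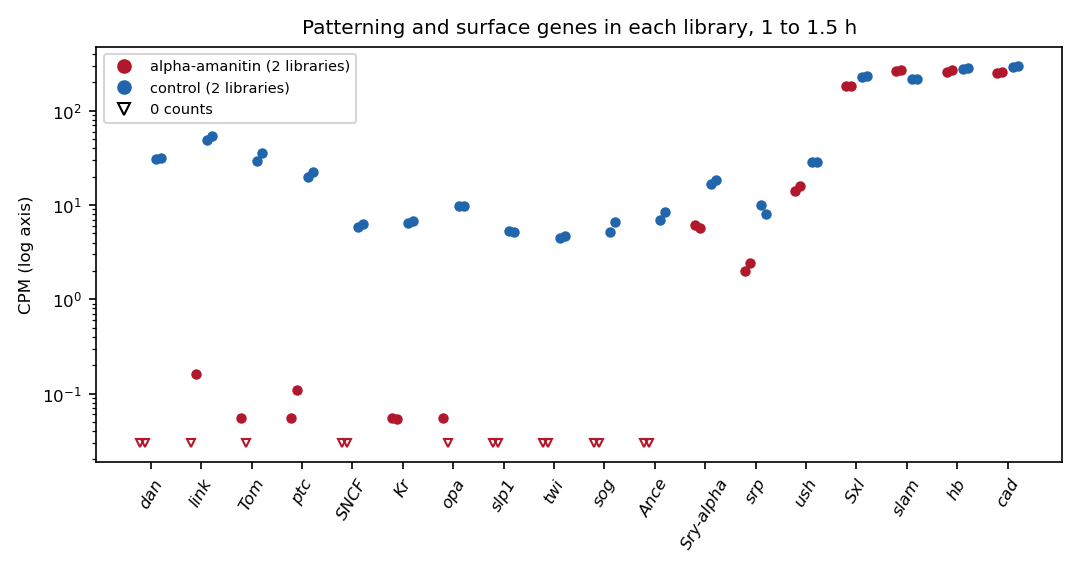
CPM (log axis) in each of the 2 alpha-amanitin and 2 control libraries of 1 to 1.5 h for 18 patterning, cellularization and surface genes. Open triangles mark libraries with 0 counts and are drawn at the bottom of the axis. The first 11 genes lie at 0 or a few counts with alpha-amanitin and above 4 CPM in controls, Sry-alpha, srp and ush are separated by less, and Sxl, slam, hb and cad lie close together.

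The genes that turn the zygotic genome on and the machinery that reads it mostly moved little. Of 9 regulators of genome activation 3 were lower: opa and grh, both by at least 2-fold, and, by -0.23, the pioneer factor gene zld (named vfl in the files). The core promoter factor gene M1BP was higher by 0.47, and the list median was -0.07. Of 12 RNA polymerase II subunit genes RpII18 was lower (-0.50) and Rpb5, Rpb12 and Rpb10 higher (0.21, 0.49 and 0.71), while RpII215, the subunit that alpha-amanitin binds, was not called (0.05). Without alpha-amanitin replicate 1, alpha-amanitin replicate 2 or control replicate 2, 1 of the 12 was higher. Of 13 genes of pausing and elongation TH1 (-0.44) and Su(Tpl) (-0.27) were lower and Cdk9 (0.26) and NELF-B (0.27) higher, and none was higher without alpha-amanitin replicate 1 or without alpha-amanitin replicate 2. Of 11 Integrator genes 4 were higher, IntS11, IntS14, IntS4 and IntS1, by 0.23 to 0.32, and 2 of them without alpha-amanitin replicate 2 or without control replicate 2. Such counts stand beside the 17.9% and 15.6% of all genes called lower and higher.

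Maternal RNAs that the embryo clears in the following hours differed between the arms by small amounts in either direction. Of 16 genes of this list 6 were lower and 6 higher, none by 2-fold, so that 75.0% were called, against 33.5% of all genes tested. The median was -0.05, and the lower count was 3 without alpha-amanitin replicate 1, without alpha-amanitin replicate 2 or without control replicate 2. The germ cell transcription inhibitor pgc was the lowest (-0.47), and plu and gnu, subunits of the kinase that activates maternal translation, were also lower (-0.43 and -0.35). On the other side were dhd, an egg thioredoxin (0.58), fs(1)Ya, a nuclear envelope protein (0.48), mtrm, a Polo inhibitor (0.36), png, the catalytic subunit of the same kinase (0.35), nos (0.32) and osk (0.28). bcd fell by 0.22 on the log2 scale. Summed levels of the list were 13600 and 13700 CPM in alpha-amanitin embryos and 12700 and 13000 CPM in controls. At 2.5 to 3 h the same list summed to 13200 and 13000 CPM in alpha-amanitin embryos and 1690 and 1730 CPM in controls, and 15 of its 16 genes were higher with alpha-amanitin there.

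Other maternal lists had medians near 0. Among the determinants of the body axes exu, which localizes bcd RNA, was higher, with 1307 and 1289 CPM in alpha-amanitin embryos and 847 and 866 CPM in controls, a log2 change of 0.60 ± 0.06. Of 8 genes of egg activation 3 were lower and 2 higher, among them cort (0.45), an activator of the anaphase-promoting complex in meiosis. Of 16 genes of RNA decay 1, smg, the Smaug gene, was lower (-0.19) and 3 higher (me31B 0.17, tral 0.29 and nos 0.32), at a median of 0.02. Of 13 germ plasm genes 1 was lower and 5 higher, of 15 cell cycle genes 4 and 3, of 15 replication genes 2 and 5, of 9 histone variant and histone mRNA processing genes 0 and 3, and of 12 heat shock genes 3 and 3, with medians from -0.03 to 0.08. Set against the 17.9% lower and 15.6% higher of all genes tested, the higher share was 38.5% in germ plasm, 33.3% in replication and in histone variants, 25.0% in heat shock and 18.8% in decay, and the lower share reached 26.7% in cell cycle and 37.5% in egg activation. When any 1 of the 8 libraries was left out, higher counts ran from 1 to 3 in the decay list, 2 to 5 in germ plasm, 1 to 4 in cell cycle and 0 to 7 in replication. Of 10 genes of p53 response and apoptosis W (hid) and Corp were lower and th, an inhibitor of caspases, higher (0.38), with 0 to 4 lower when any 1 library was left out. Of 8 ecdysone response genes tested 1 was lower, and 2, the nuclear receptor genes Hr4 and Eip75B, were higher. Both rose at least 2-fold, Eip75B by a log2 change of 1.44.

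Rises of at least 2-fold numbered 21, against 1328 genes called higher at any size, and most of the 15 largest by the naming rule were in genes without a descriptive name. The noncoding RNA CR44101 had 131 and 145 counts in alpha-amanitin embryos and 31 and 34 in controls, a log2 change of 1.89. CG17209, which encodes the largest subunit of RNA polymerase III, stood at 136 and 143 CPM against 79.7 and 77.2 CPM, a log2 change of 0.83 ± 0.06 (edgeR, Benjamini-Hochberg adjusted p = 5.1e-07). The arms of both genes were well apart. The genes CG8021, CG13822 and CG42857 had log2 changes of 1.14, 1.08 and 1.06, and the largest adjusted p of the 15 rises was 0.0486 (edgeR, Benjamini-Hochberg). Of 12 replication-dependent histone gene copies that passed the filter 11 were higher, the His1 copies by 0.92 to 1.93, but the copies are near-identical, some carry equal counts, and how reads were divided among them is uncertain. Histone messages lack a poly(A) tail and are read here through total RNA.

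Calls in small nuclear RNAs, which the Integrator complex processes, and in RNAs made by RNA polymerase III stand beside 17.9% lower and 15.6% higher of all genes tested. Of 25 snRNA genes of RNA polymerase II, 13 were tested and none was called by edgeR after adjustment, 3 at an unadjusted p under 0.05 and none by DESeq2. Scaling by total counts gave 3 lower, and edgeR without the filter on low counts 5 lower and 3 higher. Without 1 control library of 2.5 to 3 h, replicate 1 or replicate 2, 3 were called lower, and without alpha-amanitin replicate 1 of 1 to 1.5 h 1 was. Copies of 1 snRNA share sequence, so their counts are uncertain. The SE of the log2 change was wide in several, such as 0.913 for snRNA:U2:38ABa and 0.323 for snRNA:U1:21D, against 0.0892 for snRNA:U12:73B. The absence of calls therefore does not show equal levels. Of 5 RNAs of RNA polymerase III tested, RNaseMRP:RNA, which cuts ribosomal RNA precursors, was lower, with a log2 change of -0.66 and 662 and 653 CPM in alpha-amanitin embryos and 1026 and 1055 CPM in controls. 7SL, 7SK and RNaseP RNA were not called.

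What the lowered genes share was read from annotation and from untreated libraries that the comparison did not use. The 568 genes at least 2-fold lower spanned a median of 4784.5 bp, against 2838.5 bp over all genes tested, and their transcripts had a median length of 2365 against 1926 bases. Genes with 1 exon made up 20.2% of them, against 10.3% of all tested, and 10.9% against 17.1% lay on the X chromosome. Among genes that pass the filter on the 4 libraries of 1 to 1.5 h, the median span was 4514.5 bp in the 416 lowered and 2797 bp in the 7299 tested. Shares there were 20.9% against 9.44% with 1 exon and 11.1% against 17.6% on the X chromosome. In newly laid wild type embryos of 3 other experiments (6 libraries of 0 to 0.5 h), 49.8% of the lowered genes averaged under 1 TPM, against 18.5% of all genes tested. Genes that passed the filter only with the 2.5 to 3 h libraries raise both shares: of the 416 lowered genes that pass on the 4 libraries of 1 to 1.5 h, 35.3% were under 1 TPM, against 5.77% of the 7299 tested on those libraries. For all 568, at a limit of 0.5 TPM the shares were 31.7% against 14.7%, and at 5 TPM 86.1% against 26.0%. Library by library, 43.1% to 64.1% of the 568 were under 1 TPM in the newly laid embryos. In this experiment's controls of 1 to 1.5 h the share was 54.8% and 56.2%, so it does not tell absence at laying from a low level. Those newly laid embryos themselves held some zygotic RNA, such as 12.6 to 48.2 TPM of SNCF.

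By transcript class, 34 of 106 antisense RNAs tested (32.1%) and 32 of 133 long noncoding RNAs (24.1%) were lower, against 1449 of 8213 protein-coding genes (17.6%). None of the antisense RNAs was called higher by edgeR (1 at an unadjusted p under 0.05), and by DESeq2 9 were lower and none higher. The library kit keeps strand, but the sources used here do not state whether the counting used it, so an antisense RNA and the gene it overlaps may share reads. The roX1 RNA of male dosage compensation, picked after its values were seen, had 1 and 2 counts in alpha-amanitin embryos and 405 and 373 in controls.

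A set of genes picked after their values were seen had substantial RNA left and still fell beyond the replicate spread. Egfr, the EGF receptor gene, kept 5.83% of the control level and fell by 4.09 on the log2 scale. l(3)neo38 fell by 2.84, the midline guidance gene sli by 2.02, btsz by 1.74 and Nrt, the surface receptor for the secreted protein Ama, by 0.94, with 52.2% left. Of 88 ribosomal protein genes 12 (13.6%) were lower and 28 (31.8%) higher, against 17.9% and 15.6% of all genes tested, with a median of 0.16. Among the 12 lower ones, sta fell by 1.00, RpS2 by 0.83 and RpLP0 by 0.76.

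**Figure D4:**
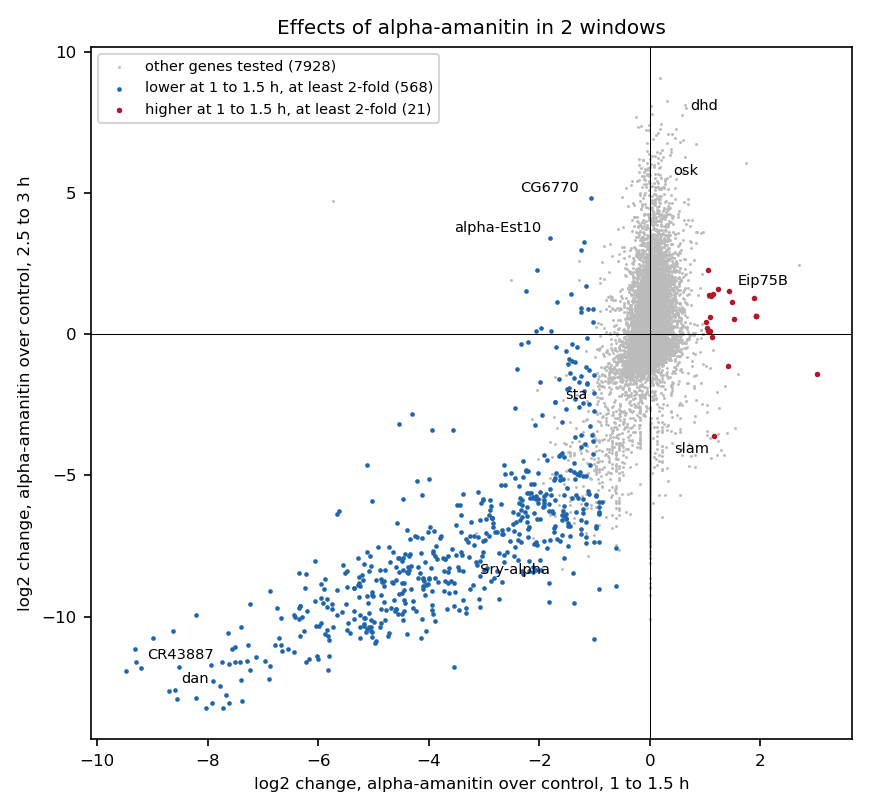
Log2 change in alpha-amanitin over control embryos at 2.5 to 3 h (vertical axis) against 1 to 1.5 h (horizontal axis) for all genes tested, n = 2 libraries per group and window, with a gene that had at most 3 counts in an arm drawn at its bound. Of the 568 genes at least 2-fold lower at 1 to 1.5 h, 540 are at least 2-fold lower in the later window too, and 11 were called higher there. RNAs such as osk and dhd lie near 0 on the horizontal axis and high on the vertical one.

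The later window of the same experiment shows how the early set relates to the full response. At 2.5 to 3 h 4235 genes (49.7%) were lower and 3403 (40.0%) higher. Of the 568 early falls 540 (95.1%) were at least 2-fold lower at 2.5 to 3 h, and these made up 22.4% of the 2412 genes at least 2-fold lower then. The 152 that passed the filter only with the later libraries were all among the 540, and of all 1218 genes that passed in this way 97.9% were at least 2-fold lower later. Of the 416 that pass on the early libraries alone 388 (93.3%) were at least 2-fold lower later, against 16.7% of the 7299 genes tested on them. The windows share no library. The higher calls of 1 to 1.5 h were split later, with 882 higher and 301 lower at 2.5 to 3 h, and of the lower calls 1114 were lower and 311 higher. The 2237 genes at least 2-fold higher at 2.5 to 3 h, among them the RNAs that untreated embryos clear, had a median change of 0.09 at 1 to 1.5 h, where 644 were higher and 181 lower.

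Tested as an interaction in the same fit, the effect at 2.5 to 3 h was below that at 1 to 1.5 h in 2957 genes (34.7%) and above it in 3238 (38.0%). The first count includes genes that passed the filter only with the later libraries, 1218 of those tested. How these genes entered favours a later effect below the early one, and a count without them is not given here. The 10 genes with the largest positive differences were low in controls later, and early their arms differed by at most 0.66 on the log2 scale. Cyp6a19, a cytochrome P450 gene, had 729 and 725 CPM in alpha-amanitin embryos and 634 and 652 CPM in controls at 1 to 1.5 h, and 554 and 550 CPM against 1.37 and 0.573 CPM at 2.5 to 3 h, a difference of 8.87. CG6770, picked because it was called in opposite directions, had 125 and 135.5 CPM against 275 and 270 CPM early and 83.6 and 82.3 CPM against 1.92 and 4.39 CPM later. In that gene the treated level lay under the control level in the first window and over it in the second, in every library.

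Set among untreated embryos of the same window, the controls of this experiment held less RNA of many of the lowered genes. Of the 568, 206 (36.3%) had both controls below the lowest of 8 wild type libraries in TPM, against 4.95% of all genes tested, and 21 (3.7%) had both above the highest, against 22.2%. bnk stood at 5.39 and 5.91 TPM in the controls, against 35.9 to 179 TPM in the wild type libraries, which come from 4 other experiments. halo stood at 7.08 and 10.7 TPM in the controls and at 43.8 to 266 TPM in wild type, and Bsg25A, a subunit of an insulator complex, at 1.55 and 2.83 against 28.0 to 135 TPM. Every control library also lay below every wild type library for SNCF, term, Kr (2.62 and 2.53 against 4.83 to 12.5 TPM) and ptc (3.51 and 3.76 against 4.66 to 11.8 TPM). The same held for the cellularization sum, at 147 and 148 against 438 to 1560 TPM, of which alpha-amanitin libraries still held 92.1 and 99.7 TPM. Controls lay below wild type too in the pair-rule, segment polarity, homeotic, neurogenic ectoderm, dorsal ectoderm, and E(spl) and Bearded sums. The gap and mesoderm sums lay inside the wild type range. Alpha-amanitin libraries still held 69.2 and 75.3 TPM of the gap list and 67.0 and 71.7 TPM of the mesoderm list. These 2 sums therefore say little of the members that fell. Other lowered genes had controls inside the wild type range: sisA, at 2.92 to 4.65 TPM against 2.8 to 24.2 TPM, dan, a transcription factor of the ectoderm and nervous system, at 9.16 and 8.92 TPM against 2.07 to 14.9 TPM, and slp1 at 4.06 and 3.76 against 2.63 to 11.1 TPM. Of the 568 lowered genes 93.5% and 93.8% were under 1 TPM in alpha-amanitin libraries, 54.8% and 56.2% in control libraries and 24.8% to 50.4% in the wild type libraries. bnk, halo, Bsg25A and term also stood lower in both controls than in all 6 newly laid wild type libraries of 0 to 0.5 h. Their newly laid ranges were 8.2 to 15.2, 11.6 to 35.8, 7.11 to 18.3 and 8.32 to 31.2 TPM. The cellularization sum, 147 and 148 TPM in controls, was likewise below its 180 to 376 TPM there. SNCF, Kr, ptc, sisA, dan, slp1 and the pair-rule, segment polarity and homeotic sums lay inside the newly laid range. The gap sum, which in CPM was mostly hb, lay above it. The libraries come from separate experiments, what else differs between them is not known from the labels, and no test was made across them. The genes given here as examples were picked after their values were seen.

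**Figure D5:**
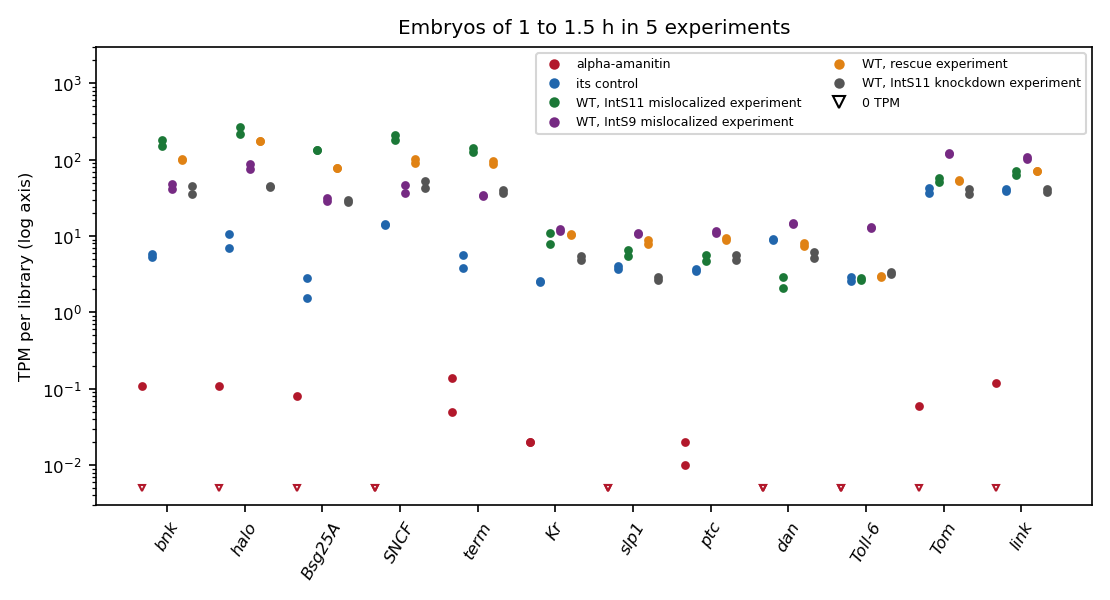
TPM (log axis) of lowered genes in the 2 alpha-amanitin libraries, the 2 controls and 8 wild type libraries of 1 to 1.5 h from 4 other experiments; open triangles mark libraries listed at 0. Controls lie below the wild type range for bnk, halo, Bsg25A, SNCF, term, Kr and ptc, and inside it for dan and slp1.

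Within the controls, genes also stood at different fractions of the level they had in controls of 2.5 to 3 h. bnk, Bsg25A, term and Z600, an inhibitor of mitosis, were at 0.604%, 0.445%, 0.598% and 0.196% of the later level. mid, Toll-6 and Antp were at 17.1%, 13.3% and 13.6%, and dan at 6.50%. By list, pair-rule RNA stood at 2.42%, segment polarity RNA at 4.20% and homeotic RNA at 8.44% of the later sum. These percentages have no test.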

How the data were processed

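Bulk RNA-seq of whole Drosophila embryos was read from the gene tables of the 72 libraries. Per the submitters' processing notes, the build was dm6 and the tools were RSEM 1.3.1, STAR 2.7.10a, DESeq2 1.40.2 and Trimmomatic 0.39. The expected counts deposited by the authors are RSEM estimates of reads per gene and are not normalized; here they were rounded. The TPM values deposited by the authors are scaled for transcript length and depth, and they served for naming genes and for levels in untreated libraries. FPKM was not used. The tables hold 16680 genes, of which 16628 were given dm6 coordinates from the reference annotation.

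The 8 libraries of the alpha-amanitin experiment were fitted together with edgeR 4.0.16 in R 4.3.3 (1 mean per group, TMM, filterByExpr, robust quasi-likelihood F test). P-values were adjusted by Benjamini-Hochberg over the 8517 genes tested, with a threshold of 0.05. The SE is the absolute log2 change divided by the root of F. CPM uses TMM-scaled library sizes. Of the genes tested, 1218 passed the filter only with the libraries of 2.5 to 3 h. Later levels, newly laid shares, gene span, exon number and chromosome of the lowered set are also given for genes that pass on the 4 libraries of 1 to 1.5 h. There are 7299 of these, an alternative chosen after seeing the data. Other counts, among them those by list, by transcript class, of genes at 0 and of interactions, include genes that entered through the later libraries. The difference between windows is an interaction term of the same fit. Counts were also simulated for the 8 libraries at the mean levels of the 1 to 1.5 h controls, and 7384 genes of them passed the filter. The 200 changed genes were drawn from those over 2 CPM. Of genes changed 1.5, 2 and 4-fold, 85.3%, 97.0% and 100% were given back, and 7.39% of calls were false. The 568 lowered genes had a median of 1.72 CPM in controls, so these shares do not cover falls at lower levels.

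The genes named are the 15 largest falls and 15 largest rises among called genes with libraries apart in TPM and a mean of at least 5 TPM, up to 6 members of each of 36 lists with their exceptions, the 10 largest differences between windows in each direction and the 10 most abundant protein-coding genes. The text gives a selection of these. Other genes are marked as picked after their values were seen; so were the list members Abd-B, Bsg25A, nullo, term, wg, zen, grh, Hr4, IntS14, Rpb5, Rpb10, TH1, Thor and W. The lists and the comparison were chosen with earlier results of these data known. Alternatives were RLE and total-count scaling, no filter, the 4 libraries of the window alone, a replicate block, leaving out each library, and DESeq2 1.42.0. With 2 libraries per group, intervals and bounds cover counting error only.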

Additional observations from a re-analysis of the deposited data

Results flagged for a closer look

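The effect of alpha-amanitin differed between 2.5 to 3 h and 1 to 1.5 h in many genes by the interaction term of the edgeR fit (Benjamini-Hochberg adjusted p under 0.05), below 0 in 2957 and above 0 in 3238. Differences below 0 were favoured in the 1218 tested genes that passed the filter only with the 2.5 to 3 h libraries. The 10 largest differences above 0 under the naming rule were in RNAs at similar or moderately different levels in both arms early and nearly gone from controls later: Cyp6a19 (8.87), CG9926 (8.57), CG3603 (8.42), CG15093 (8.05), CG8180 (7.96), CG9896 (7.93), CG4842 (7.79), CG4476 (7.75), CG9265 (7.53) and CG10344 (7.52), all as log2 differences. CG15093, for example, stood at 89.1 and 91.6 CPM in alpha-amanitin embryos and 91.3 and 85.7 CPM in controls at 1 to 1.5 h, and at 76.9 and 78.2 CPM against 0.343 and 0.191 CPM at 2.5 to 3 h.

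The 10 largest differences below 0 were in Drsl5 (-11.91), CG5171 (-8.19), CG8654 (-8.0), Oatp74D (-7.93), Atx-1 (-7.87), Z600 (-7.81), LanB2 (-7.79), Ac78C (-7.67), brk (-7.67) and salm (-7.52). Treated libraries of 9 of these, Ac78C apart, hold at most a few counts, so those fitted differences depend on the prior count and are not sizes. Ac78C, an adenylyl cyclase gene, had 0.763 and 0.869 CPM in alpha-amanitin embryos and 2.39 and 3.48 CPM in controls at 1 to 1.5 h, and 0.652 and 0.607 CPM against 468 and 439.9 CPM at 2.5 to 3 h. LanB2, a laminin chain gene, had 0.109 and 0 CPM against 7.0 and 7.1 CPM early, and 0 and 0 CPM against 183 and 198 CPM later.

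At least 2-fold lower early and higher later were, among others, CG6770 with a difference of 5.87, alpha-Est10 with 5.20 and Ir76a with 1.93. alpha-Est10, an esterase gene, had 7.58 and 8.48 CPM in alpha-amanitin embryos and 28.6 and 27.7 CPM in controls early, and 8.37 and 7.73 CPM against 0.617 and 0.955 CPM later. Ir76a, an ionotropic receptor gene, had 7.36 and 5.65 CPM against 12.7 and 13.8 CPM early, and 6.90 and 8.04 CPM against 3.77 and 4.30 CPM later. In both genes the alpha-amanitin level was alike in the windows and the control level was not.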

How the results depend on the processing

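For the set of 568 at least 2-fold lower, RLE scaling gave 560 genes, total counts 566, no filter 593, DESeq2 474 and leaving out any 1 of the 8 libraries 448 to 585, of which 470 of the 474 and at least 439 were among the 568. Only the 4 libraries of the window gave 420 of 7299 tested, 416 of them shared. Leaving out 1 library gave 875 to 2008 lower, 624 to 1870 higher and 13 to 31 at least 2-fold higher. DESeq2 gave 986 lower and 12 at least 2-fold higher. RLE scaling gave 1395 lower and 1561 higher, total counts 1677 and 1040. The 49.8% of lowered genes under 1 TPM in newly laid embryos became 35.2% with the 4 libraries alone, 43.9% with DESeq2, 41.1% to 49.9% without 1 library, 31.7% and 86.1% at 0.5 and 5 TPM, and 34.2% (15.1% of all tested) when each library had to be under 1 TPM. The cause was not tested.

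A replicate block gave 1338 lower, 1103 higher and 529 at least 2-fold lower. The labels do not say whether replicate numbers pair the samples. Same-numbered replicate differences correlated at -0.325 over 6776 genes at 1 to 1.5 h and -0.107 at 2.5 to 3 h, which cannot decide it. Crossing the numbers gave 1579 lower, 1396 higher and 541 at least 2-fold lower; this was chosen after seeing the data. Of the values of named genes under all alternatives 4833 kept direction and side of the threshold, 224 lost it and 159 gained it, and none reversed. Small calls lost in several include smg, me31B, Cdk9 and RpL41. A promoter motif search was not run. Depth limits genes such as inv, pb and lab, where arms differ by a few counts.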

Other observations

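Glycolysis genes, whose maternal RNA is abundant, had 2 of 12 lower and 4 higher at 1 to 1.5 h with a median log2 change of 0.04, and summed to 7410 and 7410 CPM in alpha-amanitin embryos and 6850 and 6720 CPM in controls. At 2.5 to 3 h they summed to 7000 and 7220 CPM in alpha-amanitin embryos and 694 and 708 CPM in controls, and 10 of 12 were higher. Leaving out any 1 of the 8 libraries gave 0 to 2 lower and 1 to 5 higher at 1 to 1.5 h. In the list of translation factors 3 of 12 were lower, among them Thor, the eIF4E-binding protein gene (-0.61), and 2 were higher, eIF-2alpha (0.33) and NAT1, an eIF4G relative (0.88), with a median of 0.02. Of 20 small nucleolar RNAs tested, 1 (5.0%) was lower. Over all genes tested 17.9% were lower and 15.6% higher. The shares were 16.7% and 33.3% in glycolysis and 25.0% and 16.7% in translation factors, partly near those of all genes.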
